A study of Homo sapiens with 19 samples.

Results

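In MOLM-13, a line of human acute myeloid leukaemia cells, 361 regions at annotated promoters carried an H3K4me2 peak in both libraries of cells given Corin. No peak overlapped them in either library of cells given the vehicle DMSO, although for 36 the nearest start site was itself under a DMSO peak. The regions are described here across 3 histone marks. The 4 H3K4me2 peak lists were merged into 42429 union regions, of which 4090 had this pattern, called a gain below. The 361 promoter regions are the 8.83% of those gains that lay within 1 kb of a transcription start site (TSS) of a protein-coding or long non-coding RNA (lncRNA) gene, and the other 3729 are called distal gains. The members were chosen by their H3K4me2 peaks in these 4 lists, so H3K4me2 values are given as a description, without a test. Gains made up 1.99% of the 18097 union regions within 1 kb of a TSS, against 9.64% of all union regions, and the opposite pattern, a loss, 0.155% of the former (28 regions).

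Each group was MOLM-13 cells with a single antibody: H3K27ac, H3K4me2 or H3K4me3, with 2 libraries of Corin-treated and 2 of DMSO-treated cells each. The labels give 0.1 µM for 24 h, a dose they also list for DMSO, where its meaning is unclear. The marks were mapped by CUT&RUN, in which an antibody-tethered nuclease releases the fragments that carry a mark, with 150 bp paired ends and at least 5000000 reads per library. Of the series' 19 libraries, 12 entered the comparisons. The remaining 7, for LSD1 (1), IgG (2) and the pair of all-trans retinoic acid and Corin (4), were not analysed here, and no value is set against an IgG background. All samples come from 1 cell line, and nothing says whether the 2 libraries of a group were separate cultures. The p-values below therefore measure only the spread between these libraries, and 2 against 2 cannot give a p below 0.333 in an exact permutation test.

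The Corin lists were longer than the DMSO lists for H3K4me2 (41152 and 40042 peaks against 30896 and 32299) and for H3K27ac (34424 and 30029 against 17599 and 19995). The H3K4me3 lists were closer in length (11757 and 11883 against 11104 and 11343). Read depth per library is unknown, and its part in these lengths was not tested. At the markers of blood lineages, H3K4me3 lay at 8 to 9 of 13 preset myeloid markers in each library, SPI1, CEBPA, CD33 and LYZ among them, at 1 of 6 T-cell markers (CD4), at 0 of 5 B-cell markers and, in 3 of 4 libraries, at the erythroid marker EPOR. H3K4me2 was less selective. It lay at 9 to 12 of the myeloid markers, and in every library also at 3 of 6 T-cell markers (CD4, CD8A and BCL11B), 3 of 5 B-cell markers (PAX5, CD79A and EBF1), 2 of 4 neuronal markers and EPOR, and at 1 or 2 of 3 epithelial markers. H3K27ac lay at 8 to 11 of the myeloid markers, at CD4 in all 4 libraries and at CD79A and the epithelial KRT8 in 3 each.

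Corin joins a class I histone deacetylase inhibitor to an inhibitor of the demethylase LSD1 in 1 molecule, and it was designed against the CoREST complex, in which LSD1 and HDAC1 or HDAC2 sit on the scaffold RCOR1. LSD1 removes methyl groups from mono- and dimethylated lysine 4 of histone H3 but not from the trimethylated form. H3K4me2 marks both promoters and enhancers, H3K4me3 marks active and CpG-rich promoters, and H3K27ac marks active promoters and enhancers. In myeloid leukaemia LSD1 is best known for holding back, together with the repressor GFI1, genes of mature monocytes and granulocytes.

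The upstream sequences of 5 of these promoters are shown because the genes have roles in phagocytes and inflammation and because they illustrate the low CpG content described further on. Each run is the exon-free stretch of the 200 bases before the TSS, on hg38, 5′ to 3′ on the gene's strand, in lower case with matches to the searched motifs in capitals. IL21R and ITGAM were named by the rule for wide regions over a TSS, and the other 3 were chosen after their values were seen. IL21R (interleukin-21 receptor; an internal, non-canonical start) is chr16:27427044-27427243, ITGAM (the CD11b chain of the complement receptor Mac-1) chr16:31259775-31259966 and S100A9 (a subunit of calprotectin, abundant in monocytes and neutrophils) chr1:153357654-153357853, all on the plus strand. LILRA5 (an activating immunoglobulin-like receptor of monocytes) is chr19:54313167-54313366 and S100A12 (a calgranulin of neutrophils) chr1:153375622-153375821, both on the minus strand.
IL21R: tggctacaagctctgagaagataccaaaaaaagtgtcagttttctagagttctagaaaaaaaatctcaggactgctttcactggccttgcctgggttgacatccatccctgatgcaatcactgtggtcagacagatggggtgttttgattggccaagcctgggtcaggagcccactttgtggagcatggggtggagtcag
ITGAM: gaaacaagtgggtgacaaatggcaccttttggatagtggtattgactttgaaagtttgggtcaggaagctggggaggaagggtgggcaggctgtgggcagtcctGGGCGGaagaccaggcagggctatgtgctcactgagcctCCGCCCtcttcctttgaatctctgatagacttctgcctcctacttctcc
S100A9: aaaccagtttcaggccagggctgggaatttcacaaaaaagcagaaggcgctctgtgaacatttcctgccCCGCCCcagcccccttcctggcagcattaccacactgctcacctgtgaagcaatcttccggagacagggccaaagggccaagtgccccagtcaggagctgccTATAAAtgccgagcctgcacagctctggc
LILRA5: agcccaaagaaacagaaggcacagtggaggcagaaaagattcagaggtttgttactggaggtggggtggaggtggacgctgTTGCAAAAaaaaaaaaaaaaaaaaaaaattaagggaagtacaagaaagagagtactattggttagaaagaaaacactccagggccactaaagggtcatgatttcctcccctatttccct
S100A12: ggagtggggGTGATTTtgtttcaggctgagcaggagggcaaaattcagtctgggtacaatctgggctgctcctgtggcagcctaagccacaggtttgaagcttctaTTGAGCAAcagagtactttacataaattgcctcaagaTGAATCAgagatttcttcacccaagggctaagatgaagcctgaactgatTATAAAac
The 200 bases of IL21R and of S100A12 held 0 CpG dinucleotides, LILRA5 held 1, ITGAM 2 and S100A9 4. TATAAA, the core of the TATA box, began 29 bases before the S100A9 start and 8 bases before the S100A12 start. The other capitals in S100A12 are matches to the letters of GFI1 at 191 bases, C/EBP at 94 bases and AP-1 at 57 bases before its start. In LILRA5 they mark C/EBP at 119 bases, in ITGAM SP1 at 96 and 57 bases, and in S100A9 SP1 at 131 bases. The letters searched are given with the motif counts further on. IL21R held none of the searched letters in this stretch.

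The members were mostly narrow and low in rank. Of the 361 regions, 152 (42.1%) covered a TSS, 121 (33.5%) lay upstream of the nearest one and 88 (24.4%) downstream. For 258 (71.5%) that nearest TSS was within 500 bp of a canonical start of its gene. The nearest gene was protein-coding for 209 and a lncRNA for 152, giving 351 distinct genes, of which 10 had more than 1 member. By annotation of any overlapped base, 59 regions touched a coding exon. Of the rest, 54 touched a UTR, 90 only an exon of a non-coding transcript, 103 only an intron and 55 no gene. The H3K4me2 peaks over them spanned 190 to 2572 bp in Corin replicate 1, with a median of 455, and 191 to 2465 bp in replicate 2, with a median of 403. The union regions had a median width of 559 bp, near the 574 bp of the distal gains and well under the 1855 bp of the 15106 promoters that had H3K4me2 in all 4 libraries. Their peaks' scores, the authors' own values, stood at a median percentile of 24.7 and 21.0 within the 2 Corin lists, and 300 members (83.1%) were below the median of both lists. With each H3K4me2 list reduced to its 30896 highest-scoring peaks, the rule gave 121 regions, of which 108 were among the 361.

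**Figure D1:**
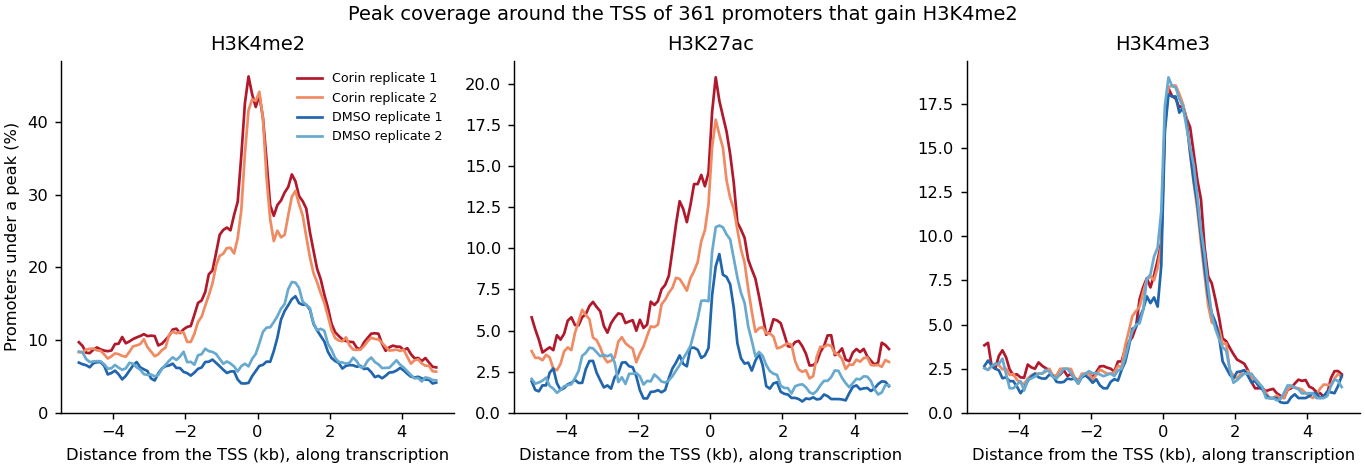
Percent of members under a peak at each distance from the nearest TSS (x, distance along the gene's strand), 1 panel per mark and 1 line per library. At the TSS, H3K4me2 covered 42.9% and 43.5% of members in Corin and 6.09% and 8.82% in DMSO, a contrast the selection fixes, while H3K4me3 lines of both treatments ran between 12.1% and 14.4%.

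Around each TSS, DMSO peaks were not always far away. The nearest DMSO H3K4me2 peak lay at a median of 2881 bp from a member (range 1 to 1965310 bp). It was within 1 kb for 130 members (36.0%), between 1 and 10 kb for 106 (29.4%) and beyond 10 kb for 125 (34.6%). For 36 members the nearest TSS itself was under a DMSO H3K4me2 peak, with the gained region beside it. The members thus ran from new peaks next to promoter domains already marked in DMSO to H3K4me2 at starts with none nearby, and these ends differed in gene type and base composition.

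Members within 1 kb of a DMSO peak were more often upstream of the start than over it (63 upstream, 38 over a TSS, 29 downstream), whereas the isolated ones beyond 10 kb were mostly over it (66, against 29 upstream and 30 downstream). A lncRNA was the nearest gene for 26.2% of the members within 1 kb of a DMSO peak, 45.3% of those between and 56% of the isolated ones. H3K4me3 in both DMSO libraries, at any start of the gene, was found for 72.3%, 26.4% and 8% of the 3 groups in that order. Over all 361 members it was found for 132 (36.6%). For protein-coding members the share was 49.3%, against 50.2% of all protein-coding genes, and for lncRNA members 19.1% against 15.1% of all lncRNA genes. H3K4me2 in both DMSO libraries, at any start of the gene, was found for 150 members (41.6%). Its share was 56.5% for protein-coding members, against 61.2% of all such genes, and 21.1% for lncRNA members, against 21.8%. The distance classes rest on the same lists as the selection, so these shares describe the members only.

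**Figure D2:**
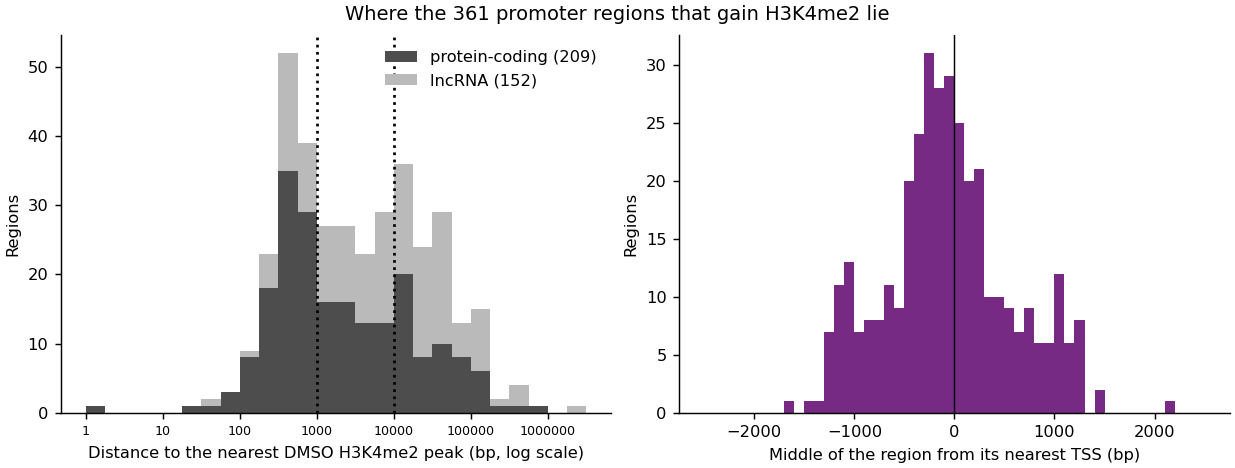
Left, number of members by distance to the nearest DMSO H3K4me2 peak (x, bp, log scale), stacked by gene type, with dotted lines at 1 and 10 kb. Right, number of members by the distance from the nearest TSS to the middle of the region (x, bp, negative upstream). Protein-coding genes make up most of the 130 members within 1 kb, and lncRNA genes 56% of the 125 beyond 10 kb.

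Of the isolated members, 35 covered the start of a protein-coding gene, and for 31 that start was within 500 bp of a canonical one. It was not for IL21R, PEX5L, SYK and ARHGEF10L. On the preset myeloid list were 5 of the 35: ITGAM, LILRA5, LY96, S100A12 and S100A9. IL21R had the widest region (chr16:27426134-27428863), with 2566 and 2465 bp of H3K4me2 in the Corin libraries. This region lies over an internal start, and a second member (864 and 741 bp) lay 817 bp upstream of the gene's first start. That second region was not isolated, at 485 bp from a DMSO peak, and was not a member at matched peak number. LY96, the co-receptor through which TLR4 senses lipopolysaccharide, had 1913 and 1900 bp (chr8:73990925-73992857). ITGAM had 1249 and 1459 bp (chr16:31259741-31261199), and FCRLA, an intracellular Fc receptor-like protein of B cells, 1236 and 2186 bp. The isolated regions of these 4 genes were wide in both libraries and remained members when each H3K4me2 list was reduced to the same number of peaks.

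The calgranulin genes S100A9 (768 and 1139 bp) and S100A12 (771 and 566 bp) lie close together on chromosome 1, and each had a region of its own over its start. TLR7, an endosomal sensor of single-stranded RNA, had 1652 and 545 bp, an uneven pair. MPEG1, a pore-forming protein of macrophages, had 710 and 516 bp. LILRA5 had 685 and 750 bp, and its relative LILRB3, an inhibitory receptor, 635 and 309 bp. The leukocyte receptor genes are close paralogs, as are CCL4L2 (742 and 700 bp, a copy of the chemokine gene CCL4) and its neighbours, so reads may be shared among copies and these values are uncertain. PDCD1LG2, the PD-1 ligand PD-L2, had 937 and 756 bp, TNFSF15, a cytokine of the TNF family, 799 and 677 bp, and MS4A4A, a surface protein of macrophages, 529 and 531 bp.

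Smaller regions covered the starts of EBI3, a cytokine subunit (421 and 534 bp), HK3, the hexokinase of myeloid cells (551 and 392 bp), SYK, the kinase below Fc and integrin receptors (360 and 270 bp) and PADI4, the histone-citrullinating enzyme of neutrophils (220 and 216 bp). Of the 35 genes, 6 are on a list compared further on (the 5 above and IL21R) and 29 are on none. Those of the 29 given a role above were, FCRLA apart, picked for it after their values were seen, so no count supports a shared theme. PEX5L (714 and 651 bp), the cadherin gene PCDH12 (320 and 717 bp) and the zinc-finger gene ZNF107 (295 and 619 bp) were also in the group. The remaining starts were those of TMEM273, TESPA1, VSTM2L, ENSG00000285947, CABYR, LY6K, TFCP2L1, GAPT, ARHGEF10L, LGALS2, CHN1, TEX19, PLAAT5 and PDPN. Their smaller Corin value ran from 192 bp at PDPN to 503 bp at TMEM273. Of the 35 regions, 10 were still members at matched peak number. S100A9, S100A12, TLR7, LILRA5 and MPEG1 were not. Their peaks in Corin replicate 2 stood at percentiles 19.5, 19.8, 11.7, 18.3 and 16.1 of that list's scores, in this order, and those in replicate 1 at 37.7, 47.0, 25.8, 38.5 and 41.2.

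**Figure D3:**
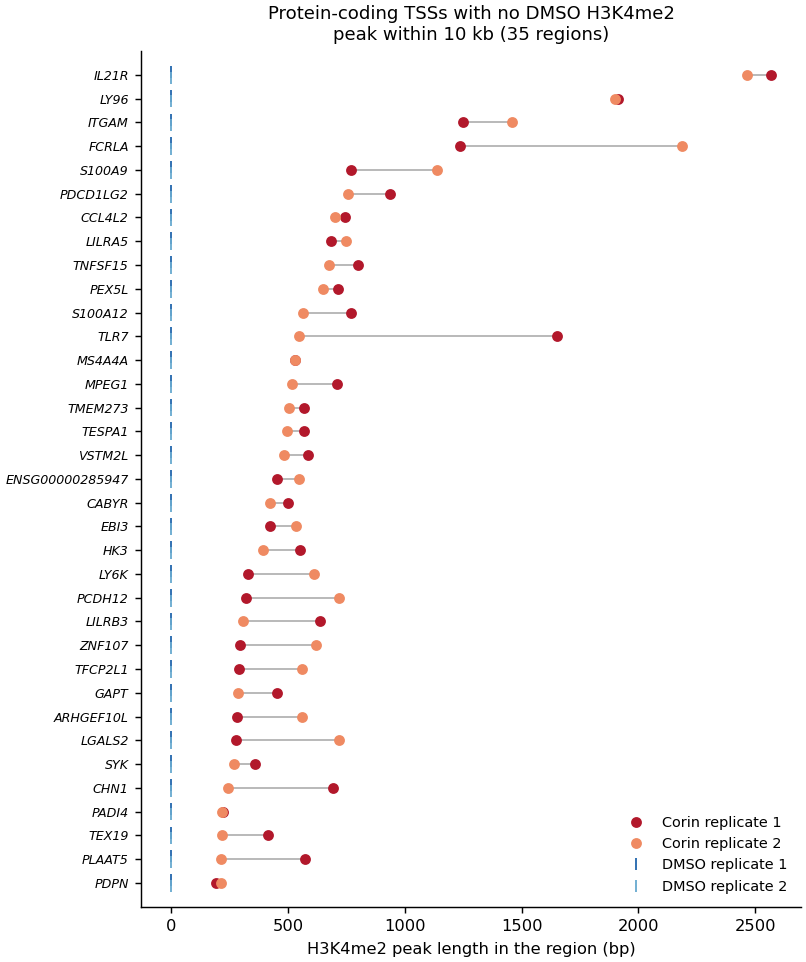
Length of H3K4me2 peaks (bp, x) over each of the 35 protein-coding starts with no DMSO peak within 10 kb, 1 point per library; genes are ordered by the smaller Corin value. DMSO values are 0 by the selection, and the smaller Corin value ranges from 192 bp to that of IL21R at 2465 bp, with a median of 452 bp.

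Gene lists for the lineage, for the drug's target and for other cell types were compared with the members by nearest gene. Of 20020 protein-coding genes, 206 (1.03%) were nearest to a member, and of 18842 lncRNA genes 145 (0.77%). The list of myeloid differentiation genes held 7 of 53 (13.2%): CD86, ITGAM, LILRA5, LY86, LY96, S100A12 and S100A9. The cytokine and chemokine list held 2 of 60, CCL2 and IL21R, and the list of haematopoietic transcription factors 1 of 49, NFE2. The lists of interferon-response genes (40), REST-bound neuronal genes (47), cell-cycle and death genes (20) and CoREST subunits (14) held 0 members each. So did the marker lists of T cells (15), B cells (12), NK cells (10), erythroid cells and megakaryocytes (17) and epithelium (8). The lists were set with earlier results of these data known, so the myeloid count is not independent evidence. At matched peak number it was 3, with CD86 there by a different region.

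The listed genes differed in how far their region lay from existing marking. CD86, a co-stimulatory ligand of antigen-presenting cells, had a narrow region 599 bp upstream of a non-canonical start (chr3:122076884-122077250, 240 and 277 bp), 389 bp from a DMSO peak. LY86, which partners a TLR4-related receptor, had 197 and 382 bp at 836 bp upstream of a start, 576 bp from a DMSO peak. CCL2, a monocyte-attracting chemokine, had 661 and 699 bp over its canonical start, 1978 bp from a DMSO peak. NFE2, a transcription factor of the megakaryocyte and erythroid lineages, had 2 members 740 and 1752 bp from DMSO peaks, of 383 and 364 bp over a start and of 341 and 614 bp downstream of it. CAMP, the antimicrobial peptide cathelicidin of neutrophils, is on none of the lists and had 1242 and 986 bp over its start, 9095 bp from a DMSO peak. At matched peak number the regions of CCL2 and CAMP were still members, and those given here for CD86, LY86 and NFE2 were not.

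Other wide members had more varied neighbours. COPZ1, a coatomer subunit, had 2572 and 1938 bp in a region that touched an intron but no exon, 350 bp from a DMSO peak. RTBDN had 1636 and 1212 bp, RGS3, a regulator of G-protein signalling, 1204 and 1200 bp and TMEM109 997 and 1047 bp. LSP1, a leukocyte actin-binding protein, had 1754 and 975 bp over its start. TRPV3, a heat-sensitive ion channel, had 1111 and 1393 bp at 145 bp upstream of its start and 21729 bp from the nearest DMSO peak.

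Long non-coding members included several wide regions. TMEM78 had 2160 and 1714 bp, ENSG00000290858 2092 and 1666 bp, ENSG00000236453 1296 and 1422 bp and PTPRS-AS1 1223 and 1347 bp. LUCAT1, a stress-induced lncRNA, had 2 members 30282 and 31927 bp from the nearest DMSO peak, of 1158 and 645 bp and of 1537 and 1046 bp. In all, 31 isolated members covered a lncRNA start, against the 35 over protein-coding starts.

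At the edge of the selection, the farthest members were the regions of ENSG00000240040 at 1000 bp from its start (277 and 203 bp) and of ENSG00000289351 at 980 bp (369 and 265 bp). Just outside lay a region at 1006 bp (chr16:21649936-21651602, 1641 and 1466 bp) and another at 1011 bp (chr6:43892056-43892869, 814 and 740 bp). The regions left out by a few bases were wider than those kept.

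H3K27ac did not choose the members. A peak of it overlapped 100 (27.7%) and 75 (20.8%) of the 361 in the Corin libraries and 29 (8.03%) and 36 (9.97%) in the DMSO libraries. Both Corin libraries were above both DMSO libraries, at 24.2% ± 4.90 against 9.003% ± 1.37 (SD, n = 2 each), a ratio of 2.69. The difference of 15.2 percentage points (SD 5.09) had p = 0.333 in the two-sided exact permutation test, the smallest it can give. With the H3K27ac lists reduced to the same number of peaks it was 5.26 points. In the 1 kb either side of the members' TSSs, H3K27ac peaks covered a mean of 288 and 229 bp in Corin and 102 and 144 bp in DMSO. That is 258 ± 41.7 against 123 ± 29.95 bp (SD, n = 2 each), a log2 ratio of 1.07 (SD 0.42, exact permutation p = 0.333).

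H3K27ac was also higher in both Corin libraries where H3K4me2 had not been gained. At the 15106 promoters with H3K4me2 in all 4 libraries, H3K27ac was present at 63.9% and 61.04% in Corin and 42.7% and 50.7% in DMSO, a difference of 15.8 points and a ratio of 1.34. The members' difference minus this one was -0.517 points (SD 5.14, exact permutation p = 1). At the distal gains the shares were 32.1% and 25.05% against 9.81% and 10.3%, a difference of 18.5 points and a ratio of 2.84. The members' difference minus this one was -3.27 points (SD 1.03, exact permutation p = 0.333). The comparison depends on the scale. As a ratio, chosen as a scale after seeing the data, the members' change exceeded that of promoters with lasting H3K4me2 by 0.998 on the log2 scale (SD 0.25, exact permutation p = 0.333). Against the distal gains this log2 difference was -0.07 (SD 0.18, exact permutation p = 1). The members had a lower H3K27ac share than promoters with lasting H3K4me2 in all 4 libraries. Their regions were also narrower (median 559 against 1855 bp), and the part of width was not tested.

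**Figure D4:**
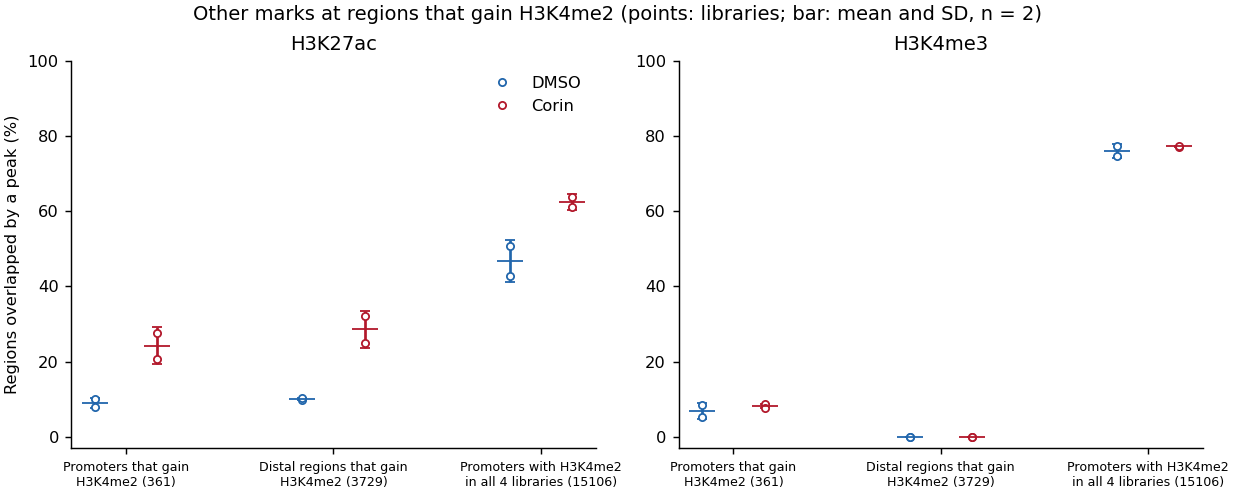
Percent of regions (y) overlapped by an H3K27ac or H3K4me3 peak for members, distal gains and promoters with H3K4me2 in all 4 libraries; open points are libraries and bars the mean and SD (n = 2). Both Corin points lie above both DMSO points for H3K27ac in each set, and for H3K4me3 the members' points overlap between treatments.

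A gain of H3K27ac by the same pattern, both Corin libraries and neither DMSO library, was found at 23 members (6.37%), against 5.64% of all union regions within 1 kb of a TSS, 5.99% of promoters with H3K4me2 in all 4 libraries, 8.98% of the distal gains and 6.47% of all union regions. The share lies near the background, and at matched H3K27ac peak number the count was 8. Of the 23, 13 were among the 152 lncRNA members and 10 among the 209 protein-coding ones. COASY, an enzyme of coenzyme A synthesis, was the 1 member with a loss, where the background is 0.105%. The longest H3K27ac in both Corin libraries with none in DMSO was at PTPRS-AS1 (946 and 1004 bp), BCL9L, a Wnt co-activator (859 and 1051 bp), and DRAIC, a lncRNA (715 and 753 bp). TMEM150B had 475 and 553 bp, DAGLB, a diacylglycerol lipase, 533 and 430 bp, and POMK, a kinase of dystroglycan glycosylation, 357 and 775 bp. The lncRNA genes ENSG00000270072 (824 and 380 bp) and ENSG00000258437 (346 and 373 bp) completed this named set. At matched H3K4me2 peak number BCL9L, DRAIC, DAGLB and POMK were no longer members, and the rest of the set were. DRAIC and DAGLB were also not members at an H3K4me2 score of at least 100. TMEM78, by contrast, had 931 and 905 bp in Corin and 494 and 0 bp in DMSO, so its groups did not overlap but 1 DMSO library held the mark.

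Over the 35 isolated protein-coding starts, an H3K27ac peak overlapped 5 and 6 regions in the Corin libraries and 1 and 1 in the DMSO libraries. Over all 42429 union regions the shares were also apart, at 48.8% and 43.3% in Corin and 28.4% and 32.1% in DMSO, a difference of 15.8 points, so the direction is not particular to these starts. LY96 had 315 and 1142 bp of it in its region in Corin and 0 in both DMSO libraries. ITGAM had 0 and 161 bp within its region, and 706 and 378 bp within 10 kb either side, with 0 in DMSO. HK3 had 447 and 213 bp in its region against 81 and 0 bp. In a single Corin library each, MPEG1 had 409 bp, CCL4L2 237 bp and PDCD1LG2 215 bp, with 0 in DMSO. IL21R, FCRLA, S100A9, S100A12, LILRA5, TLR7 and CCL2 had 0 bp in their regions in all 4 libraries. At CD86 the values were 139 and 367 bp in Corin and 0 and 298 bp in DMSO, which overlap. At the NFE2 start they were 385 and 385 bp against 0 and 240 bp, and downstream 573 and 600 bp against 0 and 168 bp.

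Within the region and 10 kb either side, the 2 Corin libraries each had more bp of H3K27ac than either DMSO library at 148 members (41.0%), against 44.1% of all promoter regions and 43.8% of all union regions. The members' share is near this background. Of the 35 isolated protein-coding starts, 6 had this pattern, namely LY96, ITGAM, PDCD1LG2, MPEG1, HK3 and LY6K, and 0 the opposite. At 25 of the 35, no library had an H3K27ac peak within that span. HK3 was the one of these 6 with the mark in DMSO, at 1088 and 747 bp in Corin and 284 and 510 bp in DMSO.

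By distance class, H3K27ac overlapped 46 and 37 of the 130 members beside a DMSO H3K4me2 peak in Corin, and 17 and 23 in DMSO. It overlapped 25 and 16 of the 106 members between 1 and 10 kb, and 7 and 7 in DMSO. Among the 125 isolated members the counts were 29 and 22, and 5 and 6. In each class both Corin counts were above both DMSO counts, as they were over all union regions. Over all members, 245 (67.9%) had H3K27ac in 0 libraries and 13 had it in all 4.

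H3K4me3 differed little. A peak overlapped 31 (8.59%) and 28 (7.76%) of the members in Corin and 19 (5.26%) and 30 (8.31%) in DMSO. The groups overlapped, at 8.17% ± 0.588 against 6.79% ± 2.15 (SD, n = 2 each), and the difference of 1.39 points (SD 2.23) had p = 0.667 in the exact permutation test. Coverage within 1 kb of the TSSs was 233.7 and 233.1 bp in Corin and 218.8 and 235.7 bp in DMSO, a log2 ratio of 0.04 (SD 0.08, exact permutation p = 1). Without DMSO replicate 1 both differences turned slightly negative, at -0.139 points and -0.01 on the log2 scale.

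H3K4me3 was absent from 321 members (88.9%) in all 4 libraries, and 16 had it in all 4. These 16 included WDR37, PSMB4, a proteasome subunit, NAE1, a subunit of the enzyme that activates NEDD8, and REXO1, an exonuclease. At matched H3K4me2 peak number PSMB4 was still a member, and WDR37, NAE1 and REXO1 were not. PSMB4 had 348 and 306 bp in Corin and 317 and 346 bp in DMSO, and NAE1 367 and 369 bp against 369 and 397 bp. Both are expressed in most cells, and their H3K4me3 lengths were alike in the 4 libraries. ZNF107 was the isolated protein-coding start with H3K4me3 in all 4 (353 and 565 bp against 368 and 553 bp). A gain of H3K4me3 was found at 2 members, against 0.669% of all promoter regions: RPL36, a ribosomal protein gene (135 and 14 bp), and RIF1, a DNA-repair and replication-timing factor (22 and 1 bp). ASPM, a spindle protein gene, was the 1 member with a loss, where the background is 0.227%. The overlaps at RPL36 and RIF1 were short.

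By distance class, H3K4me3 overlapped 25 and 23 of the 130 members beside a DMSO H3K4me2 peak in Corin and 15 and 25 in DMSO. Of the 125 isolated members it overlapped 2 and 1 in Corin and 1 and 2 in DMSO. Promoters with H3K4me2 in all 4 libraries had it at 77.2% and 77.4% in Corin and 74.6% and 77.3% in DMSO. Neither H3K4me3 nor H3K27ac was found in any library at 233 members (64.5%), against 21.0% of all promoter regions, 37.9% of all union regions and 61.5% of the distal gains. The members are promoter regions by annotation, and in this share they were nearer the distal gains than the other promoter regions. Presence counted from 1 bp of overlap, so it also depends on width. Median widths were 559 bp for members, 574 bp for distal gains and 1855 bp for promoters with H3K4me2 in all 4 libraries. The part of width was not tested.

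Base composition, which the selection did not use, differed between members and promoters at large, with fewer CpG dinucleotides at members. From 200 bases before to 100 after the TSS, the observed-to-expected CpG ratio had a median of 0.35 over the 356 distinct member starts, 0.63 over all annotated starts and 0.83 at promoters with H3K4me2 in all 4 libraries. The GC content was 54.7%, 59.7% and 66.7% in that order. Gene type mattered for the ratio. It was 0.26 at lncRNA starts of members and 0.31 at all lncRNA starts, and 0.51 and 0.76 at protein-coding starts. The ratio was below 0.6 at 66.6% of member starts and at 48.3% of all starts. By distance class, it had a median of 0.76 beside a DMSO peak, 0.25 between 1 and 10 kb and 0.26 for isolated members. Starts are not independent samples, so these values carry no test.

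**Figure D5:**
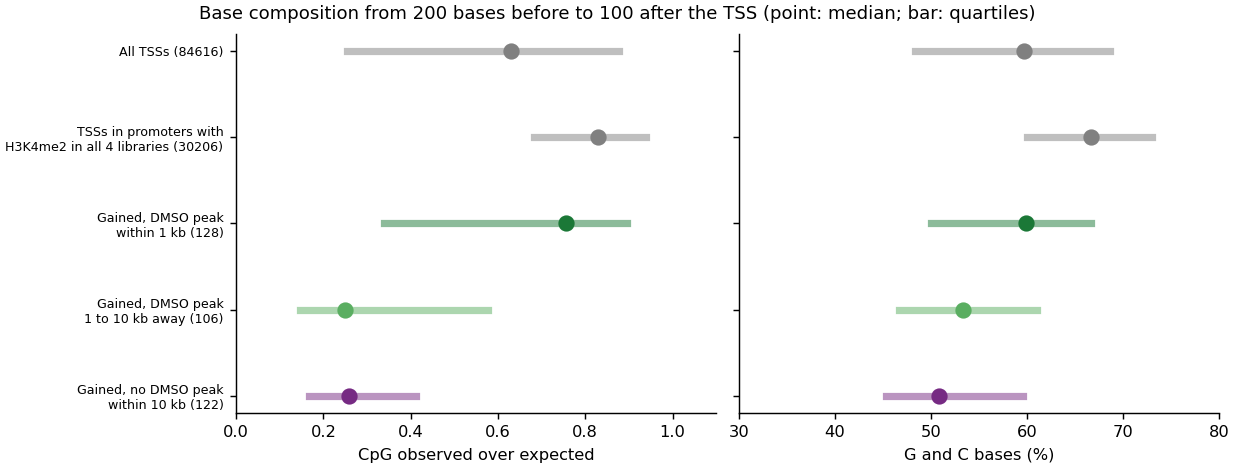
Observed-to-expected CpG ratio (left) and percent of G and C bases (right) from 200 bases before to 100 after the TSS; points are medians and bars span the quartiles. Members beside a DMSO peak have a median ratio of 0.76, and those farther away 0.25 and 0.26, against 0.63 for all starts.

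The same windows were searched on both strands for the core letters of 12 motifs. The AP-1 letters, TGANTCA, were in 11.8% of member starts and 7.04% of all starts. Those of C/EBP, a factor family of myeloid differentiation, are TTGCNNAA and were in 14.0% and 9.13%. For the myeloid factor PU.1 the search used GAGGAAGT, found in 4.49% and 2.44%, and for RUNX it used TGTGGTT, found in 5.06% and 3.86%. The RUNX gap was not seen among protein-coding genes, at 3.37% of member starts and 3.36% of all such starts. The letters of GFI1, the LSD1 partner, were taken as AAATCAC and occurred in 3.09% and 3.01%. GC-rich letters went the other way, with the SP1 core GGGCGG in 36.2% and 46.1% of starts and the ETS core CCGGAAGT, which shares its last bases with the PU.1 letters, in 2.53% and 4.44%. The TATA letters were in 8.99% and 10.1%, but the distance classes differed, at 6.25% (8 starts) beside a DMSO peak, 2.83% (3 starts) between 1 and 10 kb and 17.2% (21 starts) for isolated members. Gene type was not held equal between these classes, whose lncRNA shares were 26.2%, 45.3% and 56% in this order. The TATA letters were in 14.4% of all lncRNA starts and 7.92% of all protein-coding starts. The E-box letters, CACGTG, were in 6.46% of member starts and 7.14% of all starts. The remaining searches gave 1.97% and 1.90% for the CRE letters TGACGTCA, 5.62% and 3.64% for the interferon-stimulated response element and 0% of member starts for the retinoic acid response element. Overlaps between motifs were not removed.

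Since many members lie beside the start, the central 300 bases of the regions were searched too. The AP-1 letters were in 14.1% of members, 19.4% of distal gains, 12.1% of all union regions and 6.08% of promoters with H3K4me2 in all 4 libraries. Among members they were in 24.0% of the isolated regions and 9.23% of those beside a DMSO peak. The C/EBP letters were in 14.4% of the isolated members, 20.4% of distal gains and 10.7% of lasting promoters, the RUNX letters in 7.2%, 11.4% and 3.85%, and the PU.1 letters in 4.8%, 6.54% and 2.04%. These shares of isolated members rest on 30 regions for AP-1, 18 for C/EBP, 9 for RUNX and 6 for PU.1. For the last 3 they lay between those of the distal gains and the lasting promoters. The other myeloid letters were no more frequent in members than in all union regions here: 14.96% and 15.5% for C/EBP, 3.05% and 4.19% for PU.1, and 5.26% and 7.37% for RUNX. In the distal gains they were in 20.4%, 6.54% and 11.4%, in this order. A match is a description of letters in a window, whose chance also moves with its base composition.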

How the data were processed

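CUT&RUN peak lists of 12 libraries (3 marks, Corin and DMSO, 2 each) were used. The submitters' processing notes name Trim Galore, Bowtie2, Picard, MACS2 and hg38. Versions, control and calling threshold are not given in the sources used here. There is 1 list per library. The fifth column was deposited by the authors as a score, a whole number of at least 50 whose definition is not stated. It was used for ranks and filters inside each list. 0 of 292523 peaks passed an hg38 chromosome end. Positions are counted from 1 on hg38.

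The members, gene lists and naming rules were chosen with earlier results of these data known. Overlapping H3K4me2 peaks were merged, and a region counted for a library from 1 bp of overlap with a peak. TSSs were the 84610 distinct positions of GENCODE 44 basic transcripts of protein-coding and lncRNA genes. Shares of regions and bp under peaks were compared over libraries by a two-sided exact permutation test, with differences of differences for other region sets. Named genes were the widest members over or near coding starts and lncRNA starts, those with the most H3K27ac in both Corin libraries, those with H3K4me3 in all 4, listed genes, the widest isolated regions and those next to the 1 kb limit. Genes in a list of 5 or fewer and the isolated starts were named in addition, after their values were seen. A gene that met these rules and a sequence are not reported here. The merging and calling code was tested on simulated regions. Python 3.11.15, numpy 2.4.6 and pandas 2.3.3 were used.

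Nothing in the labels says what a replicate number stands for. Same-numbered Corin and DMSO libraries deviated together over the TSSs (correlation 0.219 for H3K27ac, 0.179 for H3K4me2 and 0.215 for H3K4me3), and a fit with the number as a block was run as an alternative. Other alternatives were a matched number of peaks, a score of at least 100, presence by 50% of the region, other TSS windows and leaving out each library. Depth is unknown, so no interval or detection floor was computed. IgG, LSD1 and retinoic acid libraries were not analysed here.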

Additional observations from a re-analysis of the deposited data

How the results depend on the processing

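The number of promoter regions that gain H3K4me2 depended on the rule. Against 361 it was 121 at a matched number of peaks per list (30896), of which 108 were among the 361, 710 with presence by 50% of the region, 152 with regions over a TSS, 598 with TSSs within 2 kb, 225 with protein-coding TSSs and 231 with no DMSO peak within 1 kb. A score of at least 100 gave 392, of which 186 were among the 361. Merging peaks up to 500 bp apart, an alternative chosen after seeing the data, gave 264. Leaving out 1 library gave 534 to 1073 (752 without Corin replicate 1, 900 without Corin replicate 2, 1073 without DMSO replicate 2), since fewer lists have to meet the rule. The myeloid count of 7 was 3 at matched peak number and 7 to 12 without 1 library, 12 without Corin replicate 2; these alternatives were also added after seeing the data. Members that gain H3K27ac numbered 23, against 11 among the members from matched H3K4me2 lists, 8 with matched H3K27ac lists, 8 over a TSS and 34 to 55 without 1 library, 55 without Corin replicate 2 and 37 without DMSO replicate 2. The count of 2 for H3K4me3 was 0 by 50% presence, 1 over a TSS and 3 to 7 without 1 library.

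The H3K27ac share difference kept its direction under the alternatives run, at 5.26 points with matched H3K27ac lists and 11.8 to 18.7 without 1 library, and the coverage log2 ratio ran from 0.67 to 1.34. The H3K4me3 share difference reversed to -0.139 points by 50% presence and ran from -0.139 to 2.91 without 1 library, and its coverage log2 ratio from -0.0143 to 0.0929. The causes were not tested. With the replicate block, whose smallest p is 0.5, the H3K27ac values were 15.2 points and 1.08 (p = 0.5 each, exact sign-flip permutation) and the H3K4me3 values 1.39 points and 0.04 (p = 1 each, exact). Neither fit can pass a threshold of 0.05 with 2 libraries a group, so no call could change. Unknown depth and 2 libraries per group limit what can be told apart.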
